A study of Mus musculus with 12 samples.

Results

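The enzymes that tie collagen and elastin fibres together covalently were described in mouse ear fibroblasts cultured on alginate gels of different stiffness and stress relaxation. They are the 5 lysyl oxidase genes Lox, Loxl1, Loxl2, Loxl3 and Loxl4, and Tgm2, which encodes transglutaminase 2. The rule took them by name, as the lysyl oxidase family and the transglutaminase that acts on extracellular matrix, and did not use a measured value. They are 6 of the 33246 genes in the count table, and 6 of 6 passed the expression filter that left 14542 genes for testing. The RNA came from 12 samples, with 3 in each of 4 groups: 2-kPa elastic, 20-kPa elastic, 2-kPa viscoelastic and 20-kPa viscoelastic gels. Elastic gels were alginate joined by covalent bonds, and viscoelastic gels were alginate joined by calcium ions that let stress relax slowly. All 4 groups held ear fibroblasts of C57BL/6 mice aged 1 month, used at passage 2, seeded at 500000 cells and kept on the gels for 48 h. The study calls the 3 samples of a group biological replicates, and the number of mice behind them is not given in the sources used here. The p-values therefore set each difference against a spread estimated from these 12 samples, and the spread between mice is not known.

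Lysyl oxidases are secreted, copper-dependent amine oxidases that convert lysine side chains of collagen and elastin into reactive aldehydes, which then form covalent crosslinks between neighbouring chains. Lox and Loxl1 carry a propeptide that procollagen C-proteinases remove, whereas Loxl2, Loxl3 and Loxl4 carry scavenger receptor cysteine-rich domains in front of the same catalytic domain. Transglutaminase 2 instead joins glutamine to lysine side chains with the help of calcium, and it also binds fibronectin and integrins at the cell surface. These enzymes are known for stiffening the matrix of connective tissue and of scars. In the present experiment the gel set the stiffness, and the data are the amounts of mRNA, not enzyme activity or crosslinks.

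The catalytic chemistry can be seen in the coding sequence, and 42-base stretches are shown here. They separate the copper enzymes from the transglutaminase and let Loxl2, Loxl3 and Loxl4 be compared. They were read from the mouse transcripts of GENCODE on GRCm38/mm10, 5′ to 3′ on the coding strand. Capitals mark every histidine codon of the stretch that holds the copper-binding histidines of lysyl oxidases, and in Tgm2 the codon of the active-site cysteine. Not every marked histidine need bind copper.
Loxl2, exons 10 and 11 of 14, codons 622 to 635 of 776: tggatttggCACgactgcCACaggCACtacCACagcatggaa
Loxl3, exons 10 and 11 of 14, codons 602 to 615 of 754: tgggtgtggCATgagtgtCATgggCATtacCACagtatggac
Loxl4, exons 11 and 12 of 15, codons 607 to 620 of 758: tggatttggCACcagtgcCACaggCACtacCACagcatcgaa
Tgm2, exon 6 of 13, codons 270 to 283 of 686: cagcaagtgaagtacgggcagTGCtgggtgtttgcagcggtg
Each lysyl oxidase stretch spans an exon junction, and the Tgm2 stretch lies within 1 exon. They lie at chr14:69682316-69689046 on the plus strand for Loxl2, at chr6:83049995-83050134 on the plus strand for Loxl3, at chr19:42598798-42599899 on the minus strand for Loxl4 and at chr2:158131341-158131382 on the minus strand for Tgm2. The Loxl2 and Loxl4 stretches shared 39 of 42 bases (92.9%), and those of Lox and Loxl1 shared 41 of 42 (97.6%). The Loxl3 stretch was no closer to Loxl2 (32 bases) and Loxl4 (31) than to Lox (32) and Loxl1 (33). Across all 5 lysyl oxidases 26 of the 42 positions held the same base. Over the aligned part of the whole coding sequence the likeness was lower, at 71.1% between Lox and Loxl1, 66.4% between Loxl2 and Loxl3, 65.7% between Loxl2 and Loxl4 and 65.1% between Loxl3 and Loxl4. Lox against Tgm2, a gene of another family, gave 66.3% in the same way, close to the figures for Loxl2, Loxl3 and Loxl4. Tgm2 gave lower figures against these genes, 61.9% against Loxl2, 60.1% against Loxl3 and 60.9% against Loxl4. Loxl1, a gene of their own family, gave 62.1%, 62.1% and 62.2% against the same genes, only slightly above Tgm2.

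None of the members shared a run of 50 bases with another member, so reads of that length could not be exchanged within the group. On mm10 the genes lie apart, Lox on chromosome 18, Loxl1 on chromosome 9 at 58287738 to 58313186, Loxl2 on chromosome 14 at 69609068 to 69695834, Loxl3 on chromosome 6 at 83034173 to 83052562, Loxl4 on chromosome 19 at 42593982 to 42612813 and Tgm2 on chromosome 2 at 158116402 to 158146436. The count of Loxl2 is uncertain in level, because 45% of its 50-base runs also occur in other annotated genes, most of them in the unprocessed pseudogene Gm21451 on the same chromosome, which had 3 to 13 counts per sample. Loxl3 shared 8.54% of its runs with Htra2, and Tgm2 shared 18.7% with Rprd1b and Gm20412, all on the opposite strand. The strand setting of the counting is not stated, so reads from these overlaps cannot be told apart. Htra2 had 713 to 899 counts per sample and Rprd1b 1461 to 1869, and neither passed the test in any comparison. On viscoelastic against elastic gels at 20 kPa, the log2 fold change of Htra2 was -0.17 (edgeR adjusted p = 0.0832). That of Rprd1b was 0.088 (edgeR adjusted p = 0.356). These signs were those of Loxl3 and Tgm2 there. At 2 kPa the values were 0.047 and -0.068, with signs opposite to Loxl3 and Tgm2. Their part in the counts of Loxl3 and Tgm2 was not tested.

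The libraries held 36626221 to 43612804 counted reads, and the biological coefficient of variation across genes was 7.50%. Values are given as CPM, the count of a gene scaled to a common library size by edgeR's TMM method, or per kilobase of exon (RPKM) where levels of different genes are compared. The 9 fibroblast markers ranged from Thy1 at 179 to 292 CPM to Col1a1 at 5686 to 6793 CPM. At 20 kPa, where most crosslinker calls fell, 3 of them were called higher (Vim, Dcn and Lum) and 2 lower (Thy1 and Prrx1) on viscoelastic gels, and their summed level was 17933 to 19422 CPM on elastic and 20302 to 21153 on viscoelastic gels. Their part in the crosslinker values was not tested. Of 4 chondrocyte markers, Col2a1 (2396 to 3471 CPM), Acan (854 to 1611 CPM) and Col9a1 (180 to 377 CPM) were also high in all 12 samples, whereas Matn1 was at 0 to 0.187 CPM. Their summed level was 3942 to 5083 CPM on 2-kPa elastic, 3539 to 3699 on 20-kPa elastic, 3745 to 4798 on 2-kPa viscoelastic and 3690 to 4998 on 20-kPa viscoelastic gels. The markers of keratinocytes, endothelial cells, leukocytes, melanocytes, skeletal muscle, adipocytes and Schwann cells summed to no more than 8.02 CPM for any of these lists, with Tyr at 0 throughout. The methods state that mice of both sexes were used, and all 12 samples had Xist at 539 to 882 CPM and 4 Y-linked genes at a sum of at most 0.0716 CPM. In bulk RNA, fewer cells of a type and less RNA per cell cannot be told apart.

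Lox was by far the most abundant crosslinker mRNA. Its mean over the 12 samples was 1028 RPKM, which placed it at rank 11 of the 13784 tested genes with a known exon length. Loxl3 followed with 87.4 RPKM (rank 370), Loxl1 with 64.5 (rank 511), Loxl4 with 39.1 (rank 954), Tgm2 with 14.6 (rank 2842) and Loxl2 with 11.0 (rank 3695). Lox made up 77.3% to 87.1% of the lysyl oxidase RPKM in a sample, against 5.33% to 9.57% for Loxl3 and 0.730% to 1.14% for Loxl2. The lowest Lox sample (723 RPKM) lay above the highest Loxl3 sample (113 RPKM), and Loxl4 (29.9 to 46.6 RPKM) did not overlap Loxl1 (49.996 to 77.0 RPKM) above it or Tgm2 below it. Loxl3 and Loxl1 overlapped slightly across samples but kept their order within 12 of 12. Tgm2 (9.38 to 18.1 RPKM) and Loxl2 (9.13 to 13.7 RPKM) overlapped, with Tgm2 higher in 10 of 12 samples. This order and the Loxl2 rank and share are uncertain. As given above, 45% of the 50-base runs of Loxl2 and 18.7% of those of Tgm2 also occur in other genes.

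**Figure D1:**
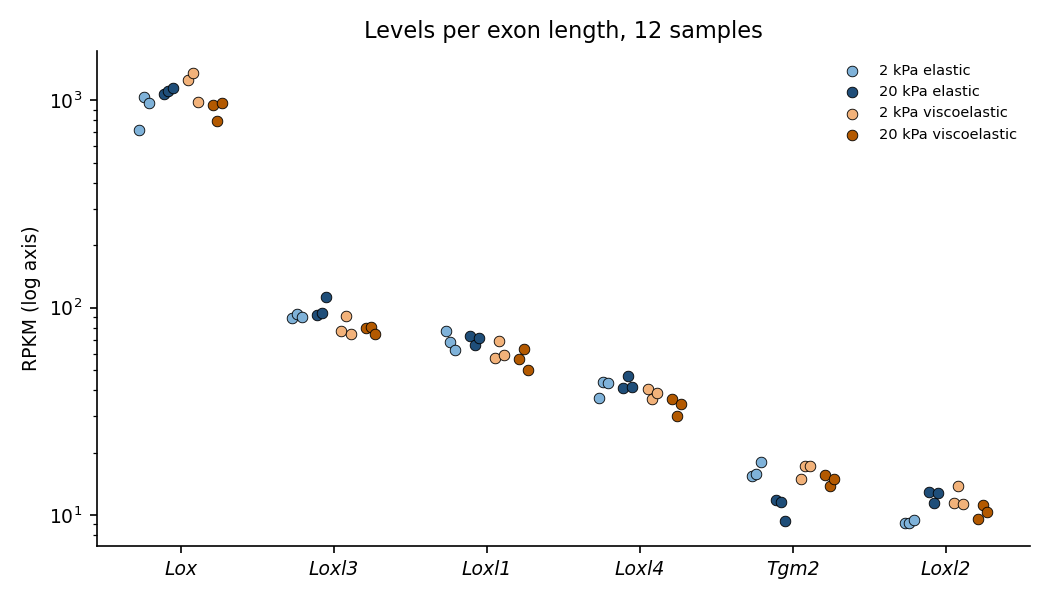
RPKM (log axis) of each crosslinker in each of the 12 samples, coloured by gel group. Lox stands at 723 to 1352 RPKM, above every sample of the other 5 genes, and Tgm2 and Loxl2 overlap at the bottom.

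The spread of Lox between replicates was also the widest of the 6, with a within-group SD of 0.20 on the log2 CPM scale, above that of 75.5% of tested genes. The other members had SDs of 0.11 to 0.14, near the median of 0.11 over tested genes. In comparisons of 2 groups the log2 fold changes of Lox carried SEs of 0.14, against 0.080 to 0.097 for the other members.

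The comparisons asked whether cells on viscoelastic gels differed from cells on elastic gels of the same stiffness, and whether stiffness had the same effect on both kinds of gel. At 2 kPa, 1 of the 6 members was called by the quasi-likelihood test of edgeR (p adjusted by Benjamini-Hochberg over all tested genes and below 0.05), Loxl2, which was higher on viscoelastic gels. Of all tested genes 19.9% were called there, 8.77% higher and 11.1% lower. At 20 kPa, 5 of 6 were called: Tgm2 rose, and Loxl1, Loxl2, Loxl3 and Loxl4 fell on viscoelastic gels. The shares of all tested genes were 33.5% called, 17.4% higher and 16.1% lower. The count fell to 3 of 6, without Loxl1 and Loxl2, when 20-kPa elastic replicate 1 or 3 or 20-kPa viscoelastic replicate 1 or 3 was left out. The median log2 fold change of the members was -0.048 at 2 kPa and -0.30 at 20 kPa, beside -7.5e-05 and 0.016 over all tested genes.

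From 2 to 20 kPa on elastic gels, 2 of the 6 members were called, Loxl2 higher and Tgm2 lower, with 14.0% of all tested genes called, 6.81% higher and 7.14% lower. From 2 to 20 kPa on viscoelastic gels, edgeR's quasi-likelihood test called 0 of 6 members, beside 2.28% of all tested genes, 1.58% higher and 0.695% lower. Lox, Loxl2 and Loxl4, all with lower values at 20 kPa, had an unadjusted edgeR p under 0.05 there. The share of all tested genes under that unadjusted threshold was not computed. DESeq2 called 1 member, Lox, and the share of all tested genes called by DESeq2 is not given here. The difference between the stiffness responses on both kinds of gel, the interaction, was called for 2 of 6, Lox and Loxl2, both negative. It was called for 7.56% of all tested genes, 4.45% positive and 3.12% negative. Averaged over both stiffnesses, the viscoelastic effect was called for 4 of 6, with Tgm2 higher and Loxl1, Loxl3 and Loxl4 lower. This average effect was called for 40.0% of all tested genes, 19.6% higher and 20.4% lower, so a call was common among all genes in it.

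**Figure D2:**
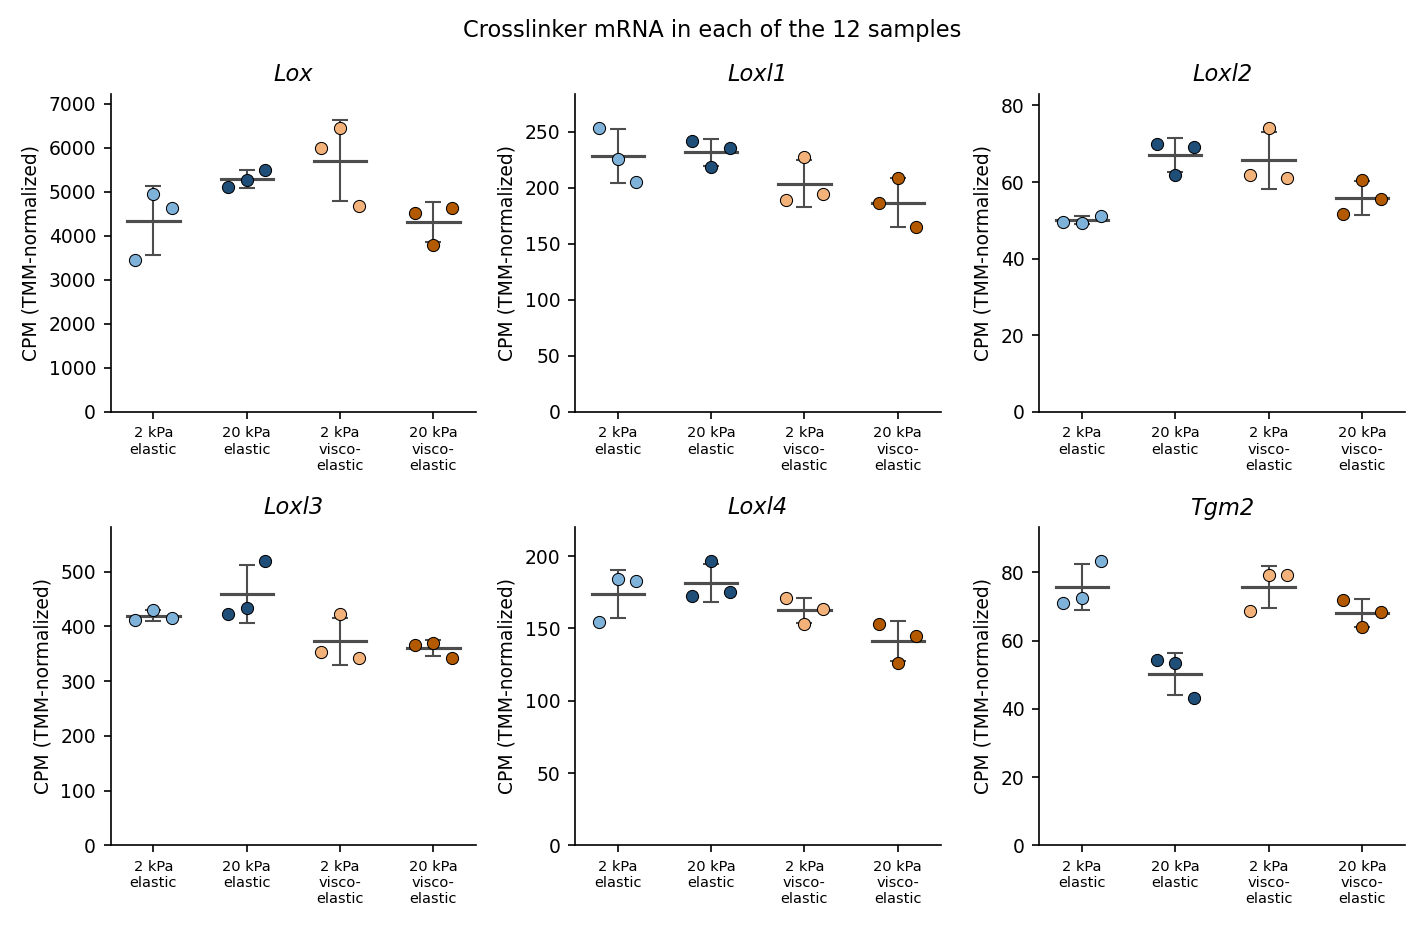
TMM-normalized CPM of each crosslinker by gel group, with a point per sample, a bar at the mean of 3 samples and whiskers of 1 SD. Lox and Loxl2 have their highest means on 20-kPa elastic and 2-kPa viscoelastic gels, Loxl1, Loxl3 and Loxl4 have their lowest on 20-kPa viscoelastic gels, and Tgm2 has its lowest on 20-kPa elastic gels.

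Lox encodes the founding lysyl oxidase, which acts on fibrillar collagens and elastin. On 2-kPa elastic gels its samples were at 3453, 4952 and 4620 CPM, with a mean of 4342 ± 787 (SD, n = 3). On 20-kPa elastic gels they were at 5106, 5276 and 5498 CPM, with a mean of 5293 ± 197. On 2-kPa viscoelastic gels they were at 6001, 6458 and 4669 CPM (mean 5709 ± 929), and on 20-kPa viscoelastic gels at 4517, 3788 and 4622 CPM (mean 4309 ± 454). The 20-kPa elastic samples lay above every 2-kPa elastic sample, and the 20-kPa viscoelastic samples lay below every 2-kPa viscoelastic sample. In these samples the order of the stiffnesses was thus opposite on the gel types. The share of all tested genes whose groups lay apart in this way was not computed. Neither step passed the test alone: the log2 fold change from 2 to 20 kPa was 0.29 (95% interval -0.0081 to 0.58, edgeR adjusted p = 0.186) on elastic and -0.41 (-0.70 to -0.11, edgeR adjusted p = 0.125) on viscoelastic gels.

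The interaction of Lox, which sets these responses against each other, was -0.69 ± 0.20 (SE) on the log2 scale, with an edgeR adjusted p of 0.0428. This call was lost when any of 9 of the 12 samples was left out, with values of -0.75 to -0.55 and edgeR adjusted p values of 0.0586 to 0.0997. It held without 2-kPa elastic replicate 2, 20-kPa elastic replicate 1 or 2-kPa viscoelastic replicate 3. Between gel types Lox had a log2 fold change of 0.40 at 2 kPa (95% interval 0.10 to 0.69, edgeR adjusted p = 0.0556) and of -0.30 at 20 kPa (-0.59 to -0.0027, edgeR adjusted p = 0.11). The difference at 2 kPa passed the threshold in 6 of 20 alternative settings. Its highest edgeR adjusted p was 0.242, without 2-kPa elastic replicate 1 (log2 fold change 0.25). It passed with total counts as the only scaling (edgeR adjusted p = 0.0274), with DESeq2 (adjusted p = 0.0142) and with no filter on low counts (edgeR adjusted p = 0.00325). It also passed without 2-kPa elastic replicate 2 (log2 fold change 0.50), 2-kPa viscoelastic replicate 3 (0.52) or 20-kPa viscoelastic replicate 2 (0.39). The difference at 20 kPa passed in 3 of 20 alternative settings. Its highest edgeR adjusted p was 0.319, without 20-kPa viscoelastic replicate 2 (log2 fold change -0.21). It passed with DESeq2 (adjusted p = 0.0481), with no filter (edgeR adjusted p = 0.0252) and with only the groups compared in the fit (edgeR adjusted p = 0.0292).

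Loxl1 encodes the lysyl oxidase best known for the upkeep of elastic fibres. Its samples were at 254, 226 and 205 CPM on 2-kPa elastic and at 242, 218 and 235 CPM on 20-kPa elastic gels, with means of 228 ± 24.3 and 232 ± 12.1. They were at 190, 228 and 194 CPM on 2-kPa viscoelastic and at 187, 209 and 165 CPM on 20-kPa viscoelastic gels, with means of 204 ± 20.9 and 187 ± 21.9. The gel types overlapped at 2 kPa and did not overlap at 20 kPa. Loxl1 fell at 20 kPa by 0.31 on the log2 scale (SE 0.097, edgeR adjusted p = 0.0221), and at 2 kPa its log2 fold change was -0.16 (95% interval -0.37 to 0.042, edgeR adjusted p = 0.25). The call at 20 kPa was lost without 20-kPa elastic replicate 1 (log2 fold change -0.30, edgeR adjusted p = 0.0518) or replicate 3 (-0.30, 0.0642), and without 20-kPa viscoelastic replicate 1 (-0.31, 0.0542) or replicate 3 (-0.23, 0.11). The mean effect over both stiffnesses was -0.24 ± 0.068 (SE, edgeR adjusted p = 0.0123), and the interaction was -0.15 (95% interval -0.44 to 0.14, edgeR adjusted p = 0.572).

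Loxl2 encodes a lysyl oxidase known for crosslinking type IV collagen of basement membranes and for its part in fibrosis. Its samples were at 49.6, 49.3 and 51.2 CPM on 2-kPa elastic gels and at 69.9, 61.9 and 69.2 CPM on 20-kPa elastic gels. They were at 61.8, 74.2 and 61.1 CPM on 2-kPa viscoelastic gels and at 51.6, 60.4 and 55.7 CPM on 20-kPa viscoelastic gels. The 2-kPa elastic samples were the lowest and lay close together (50.05 ± 1.03, SD, n = 3), whereas the 20-kPa elastic (67.0 ± 4.44) and 2-kPa viscoelastic (65.7 ± 7.40) samples overlapped above them. Loxl2 rose with stiffness on elastic gels by 0.42 on the log2 scale (SE 0.080, edgeR adjusted p = 0.00313), a rise of 33.8%. On 2-kPa gels it rose from elastic to viscoelastic by 0.39 (SE 0.080, edgeR adjusted p = 0.0037), a rise of 31.3%. Both calls held in 20 of 20 alternative settings.

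On 20-kPa gels the sign turned, and Loxl2 was lower on viscoelastic than on elastic gels by a log2 fold change of -0.26 ± 0.080 (SE, edgeR adjusted p = 0.0211). That call was lost without 20-kPa elastic replicate 1 (-0.25, edgeR adjusted p = 0.0512) or replicate 3 (-0.24, 0.0745), and without 20-kPa viscoelastic replicate 1 (-0.21, 0.0927) or replicate 3 (-0.26, 0.0585). On viscoelastic gels the step from 2 to 20 kPa was -0.23 (95% interval -0.40 to -0.063, edgeR adjusted p = 0.128). The interaction of Loxl2 was -0.65 ± 0.11 (SE, edgeR adjusted p = 0.00263) and held in 19 of 19 alternative settings. Averaged over both stiffnesses, the opposite differences left a mean viscoelastic effect of 0.066 (95% interval -0.055 to 0.19). The levels of the smooth muscle and pericyte markers, of which Cnn1 was the most abundant, had the same order: they summed to 20.3 to 20.9 CPM on 2-kPa elastic, 30.1 to 33.1 on 20-kPa elastic, 27.3 to 33.2 on 2-kPa viscoelastic and 24.1 to 27.9 on 20-kPa viscoelastic gels. Cnn1 was at 18.6 to 30.1 CPM, Myh11 at 0.879 to 3.50 and Rgs5 at 0.447 to 1.00. The endothelial markers, at 1.98 to 3.51 CPM in sum, were also lowest on 2-kPa elastic gels (1.98 to 2.20). The part of these cell types in the Lox and Loxl2 values was not tested.

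Loxl3 encodes a lysyl oxidase with a known role in the collagen of developing cartilage and palate. Its samples were at 412, 430 and 415 CPM on 2-kPa elastic and at 422, 433 and 519 CPM on 20-kPa elastic gels. They were at 354, 422 and 343 CPM on 2-kPa viscoelastic and at 366, 370 and 343 CPM on 20-kPa viscoelastic gels. The means were 419 ± 10.0, 458 ± 53.0, 373 ± 42.8 and 360 ± 14.9 CPM in that order, and gel types overlapped at 2 kPa but not at 20 kPa. Loxl3 fell on viscoelastic gels at 20 kPa by 0.35 on the log2 scale (SE 0.088, edgeR adjusted p = 0.00726), where it fell by 21.5%, and this call held in 20 of 20 alternative settings. At 2 kPa the log2 fold change was -0.17 (95% interval -0.36 to 0.019, edgeR adjusted p = 0.19), and it passed only without 2-kPa viscoelastic replicate 2 (-0.27, edgeR adjusted p = 0.036). The mean effect over both stiffnesses was -0.26 ± 0.062 (SE, edgeR adjusted p = 0.00423).

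Loxl4 encodes the lysyl oxidase closest to Loxl2 in the copper-binding stretch shown above. Its samples were at 154, 184 and 183 CPM on 2-kPa elastic and at 172, 197 and 175 CPM on 20-kPa elastic gels. They were at 171, 153 and 163 CPM on 2-kPa viscoelastic and at 153, 126 and 144 CPM on 20-kPa viscoelastic gels. The 20-kPa viscoelastic samples lay below every sample of the other groups, the highest of them at 153.2 CPM just under the lowest 2-kPa viscoelastic sample. Loxl4 fell on viscoelastic gels at 20 kPa by 0.36 on the log2 scale (SE 0.085, edgeR adjusted p = 0.00504), where it fell by 22.2%, and this call held in 20 of 20 alternative settings. At 2 kPa its log2 fold change was -0.097 (95% interval -0.28 to 0.085, edgeR adjusted p = 0.455). Its stiffness step on viscoelastic gels was -0.20 (-0.38 to -0.020, edgeR adjusted p = 0.214) and that on elastic gels 0.063 (-0.12 to 0.24, edgeR adjusted p = 0.682). Loxl2 and Loxl4 thus stood in different orders across the groups, with Loxl2 lowest on 2-kPa elastic gels and Loxl4 lowest on 20-kPa viscoelastic gels. The Pearson correlation of their log2 CPM over the 12 samples was -0.0064, against 0.76 for Loxl1 and Loxl3 and 0.65 for Lox and Loxl2, which all share the libraries and the 4 groups.

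Tgm2 was the member with the largest stiffness difference on elastic gels. Its samples were at 71.1, 72.6 and 83.3 CPM on 2-kPa elastic gels and at 54.3, 53.5 and 43.2 CPM on 20-kPa elastic gels. They were at 68.6, 79.3 and 79.3 CPM on 2-kPa viscoelastic and at 71.9, 63.8 and 68.5 CPM on 20-kPa viscoelastic gels. The 20-kPa elastic samples (50.3 ± 6.17, SD, n = 3) lay below all others, and the other 3 groups overlapped, with means of 75.6 ± 6.66, 75.7 ± 6.18 and 68.1 ± 4.07 CPM. Tgm2 fell from 2 to 20 kPa on elastic gels by 0.59 on the log2 scale (SE 0.091, edgeR adjusted p = 0.000832), so that its level fell by 33.4%. On viscoelastic gels the same step was -0.15 (95% interval -0.35 to 0.040, edgeR adjusted p = 0.384).

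At 20 kPa Tgm2 was higher on viscoelastic than on elastic gels by 0.44 on the log2 scale (SE 0.091, edgeR adjusted p = 0.00237), a rise of 35.2%. At 2 kPa the difference was 0.0019 (95% interval -0.19 to 0.19, edgeR adjusted p = 0.991). The interaction was 0.43 ± 0.13 (SE, edgeR adjusted p = 0.0531), just short of the threshold. It passed in 5 of 19 alternative settings, and in the others its edgeR adjusted p reached up to 0.125. The settings in which it passed were DESeq2 (adjusted p = 0.0295) and no filter on low counts (edgeR adjusted p = 0.00992). It also passed without 20-kPa elastic replicate 1 (0.47, edgeR adjusted p = 0.0457), 2-kPa viscoelastic replicate 2 (0.47, 0.0471) or 20-kPa viscoelastic replicate 2 (0.48, 0.0466). The group in which Tgm2 was lowest was also the group with the narrowest and lowest range of the summed chondrocyte markers (3539 to 3699 CPM), whose part in the Tgm2 values was not tested.

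**Figure D3:**
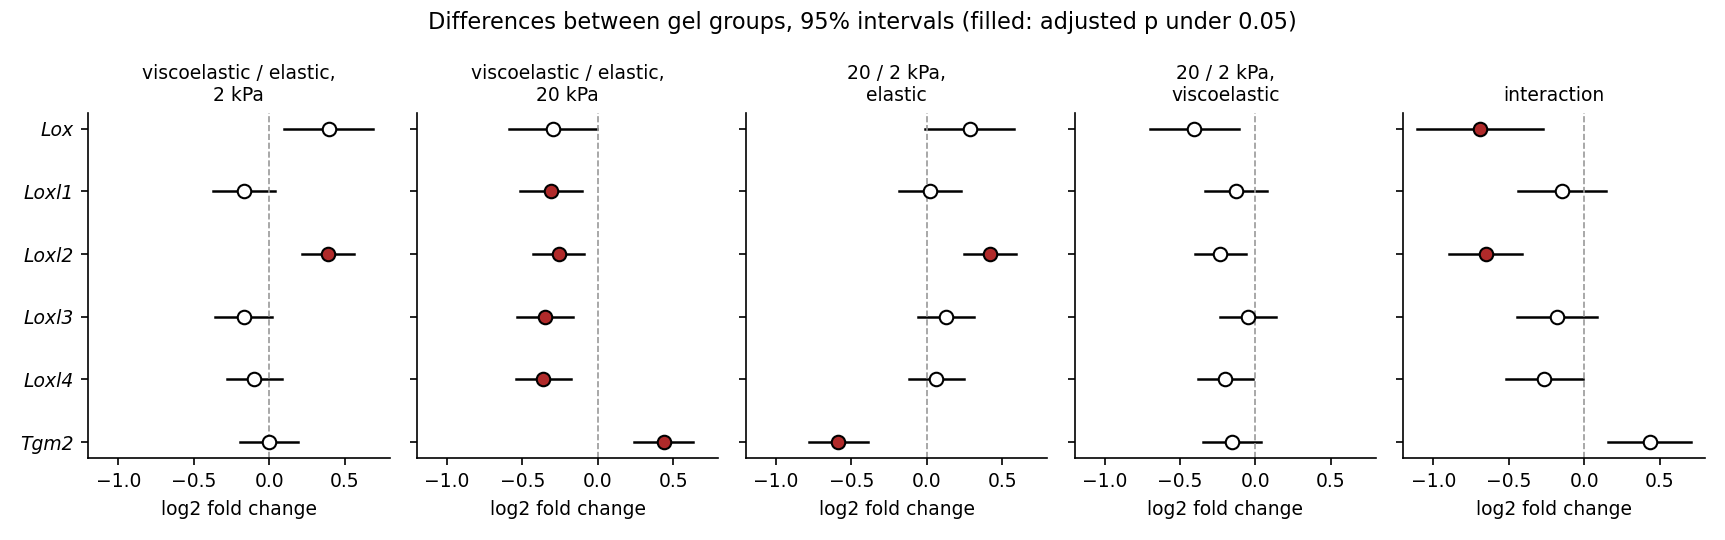
Log2 fold changes of the 6 crosslinkers in the 4 comparisons of groups and in the interaction, with 95% intervals from the edgeR fit. Filled points have an adjusted p under 0.05; at 20 kPa 5 of 6 are filled (3 of 6 without any 1 of 4 samples of that comparison), 4 to the left of 0 and Tgm2 to the right, and in the interaction Lox and Loxl2 are filled.

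The genes whose log2 CPM followed each member most closely over the 12 samples were taken by Pearson's r among all tested genes other than the members. For Lox they were Ints6 (0.88), Atxn3 (0.88) and Dok6 (0.87), and for Loxl2 they were Cxcl1, Nfkbiz and Naaa (all 0.94). For Loxl1 they were Ncstn (0.97), Ptk7 (0.96) and S1pr2 (0.94), for Loxl3 Cyb5r1, Dgke and Tnfrsf10b (all 0.96), for Loxl4 Nhlrc2 (0.95), Dlc1 (0.94) and Usp33 (0.94), and for Tgm2 Klhl22 (0.97), Idua (0.97) and Cpne8 (0.95). Between the members themselves the highest r was 0.76 (Loxl1 and Loxl3). The neighbours were picked as the highest r among all tested genes over 12 samples. Their values are therefore high by selection and cannot be compared with those of the few member pairs.

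Of 9 tested genes for the processing and tethering of the enzymes, 1 was higher and 1 lower on viscoelastic gels at 2 kPa, and 2 were higher and 2 lower at 20 kPa, with a median log2 fold change at 20 kPa of 0.0027. Set beside the 19.9% and 33.5% of all tested genes called in these comparisons, 2 and 4 of 9 are close to the background. Fmod (fibromodulin, a small proteoglycan that binds collagen and Lox) rose by 0.43 at 2 kPa and by 0.71 at 20 kPa (edgeR adjusted p = 0.03 and 0.00104). Postn (periostin, a matrix protein that brings Bmp1 to fibronectin) rose at 20 kPa by 0.69 (SE 0.10, edgeR adjusted p = 0.000225). Tll1, a protease of the Bmp1 family, fell there by 0.74 (SE 0.13, edgeR adjusted p = 0.000635), from 63.3 ± 10.2 CPM on elastic to 37.8 ± 3.04 on viscoelastic gels. Fn1 (fibronectin) also fell there, by 0.51 (SE 0.11, edgeR adjusted p = 0.00345). Tll1 also rose with stiffness on elastic gels by 0.70 (SE 0.13, edgeR adjusted p = 0.00231), where Loxl2 rose.

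Of 6 genes that carry copper into the cell and to secreted enzymes, 1 was called at 2 kPa and 2 at 20 kPa, which is the background of 19.9% and 33.5%. Slc31a1, the copper importer, fell at 2 kPa by 0.18 (edgeR adjusted p = 0.0272), and the copper chaperone Atox1 (0.35, edgeR adjusted p = 0.0103) and Commd1 (0.20, edgeR adjusted p = 0.0149), which binds copper and copper pumps, rose at 20 kPa. Atp7a, the pump that loads lysyl oxidases with copper in the Golgi, was lower on viscoelastic gels in the mean effect, at -0.45 ± 0.12 (SE, edgeR adjusted p = 0.00685). Of 6 substrate genes, 1 was called at 2 kPa and 2 at 20 kPa, with medians of 0.015 and 0.11, again at the background of 19.9% and 33.5%. Eln (elastin) fell at 2 kPa by 0.66 (SE 0.20, edgeR adjusted p = 0.0288), whereas at 20 kPa Col3a1 rose by 0.26 (edgeR adjusted p = 0.0419) and Col5a1 fell by 0.40 (edgeR adjusted p = 0.00166), both of them chains of fibrillar collagen. Of 4 other enzymes of collagen crosslinking, 0 were called higher and 2 lower at 2 kPa, and 1 higher and 1 lower at 20 kPa. All 4 were called in the mean effect, in which 40.0% of all tested genes were called, 19.6% higher and 20.4% lower. This effect was called higher for Plod2 (0.32 ± 0.063, edgeR adjusted p = 0.00109), whose hydroxylation of telopeptide lysines shapes the crosslinks that lysyl oxidases form. It was called lower for Plod1 (-0.16), Plod3 (-0.20) and the basement membrane peroxidase gene Pxdn (-0.22).

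Of 9 other transglutaminase genes, 3 passed the filter and all were low. Tgm1, the transglutaminase of the skin barrier, was at 2.64 ± 0.056 CPM on 2-kPa elastic, 3.77 ± 0.75 on 20-kPa elastic, 4.12 ± 0.22 on 2-kPa viscoelastic and 2.48 ± 0.22 on 20-kPa viscoelastic gels (SD, n = 3). It rose on viscoelastic gels by 0.64 at 2 kPa (edgeR adjusted p = 0.00614) and fell by 0.60 at 20 kPa (edgeR adjusted p = 0.00518), so its groups stood in the order of Loxl2 with regard to gel type and not in that of Tgm2. Its interaction was -1.24 ± 0.20 (SE, edgeR adjusted p = 0.0017). F13a1, which encodes the catalytic chain of coagulation factor XIII, fell at 2 kPa by 1.16 (SE 0.32, edgeR adjusted p = 0.0204) at a level of 1.06 ± 0.26 CPM on elastic gels. Of 7 genes for proteins that transglutaminase 2 is known to bind or work with, 4 fell and 0 rose on viscoelastic gels at 2 kPa, and likewise 4 and 0 at 20 kPa, with medians of -0.57 and -0.34, where 11.1% and 16.1% of all tested genes fell. The mean effect was called lower for 7 of 7, against 20.4% of all tested genes, with a median of -0.41 beside 0.0097 over all tested genes, while that of Tgm2 itself was 0.22 ± 0.064 (SE, edgeR adjusted p = 0.0139). Among them the mean effect was -1.14 for the integrin gene Itgb3, -0.38 for Mfge8, -0.26 for the syndecan gene Sdc4 and -0.43 for the endocytic receptor gene Lrp1. This list was chosen with earlier results of these data known, and it holds the integrin genes Itgb1 and Itgb3. From the same RNA-seq the study had already reported lower integrin-related genes on viscoelastic gels. The counts of this list therefore describe these data and are not independent evidence.

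**Figure D4:**
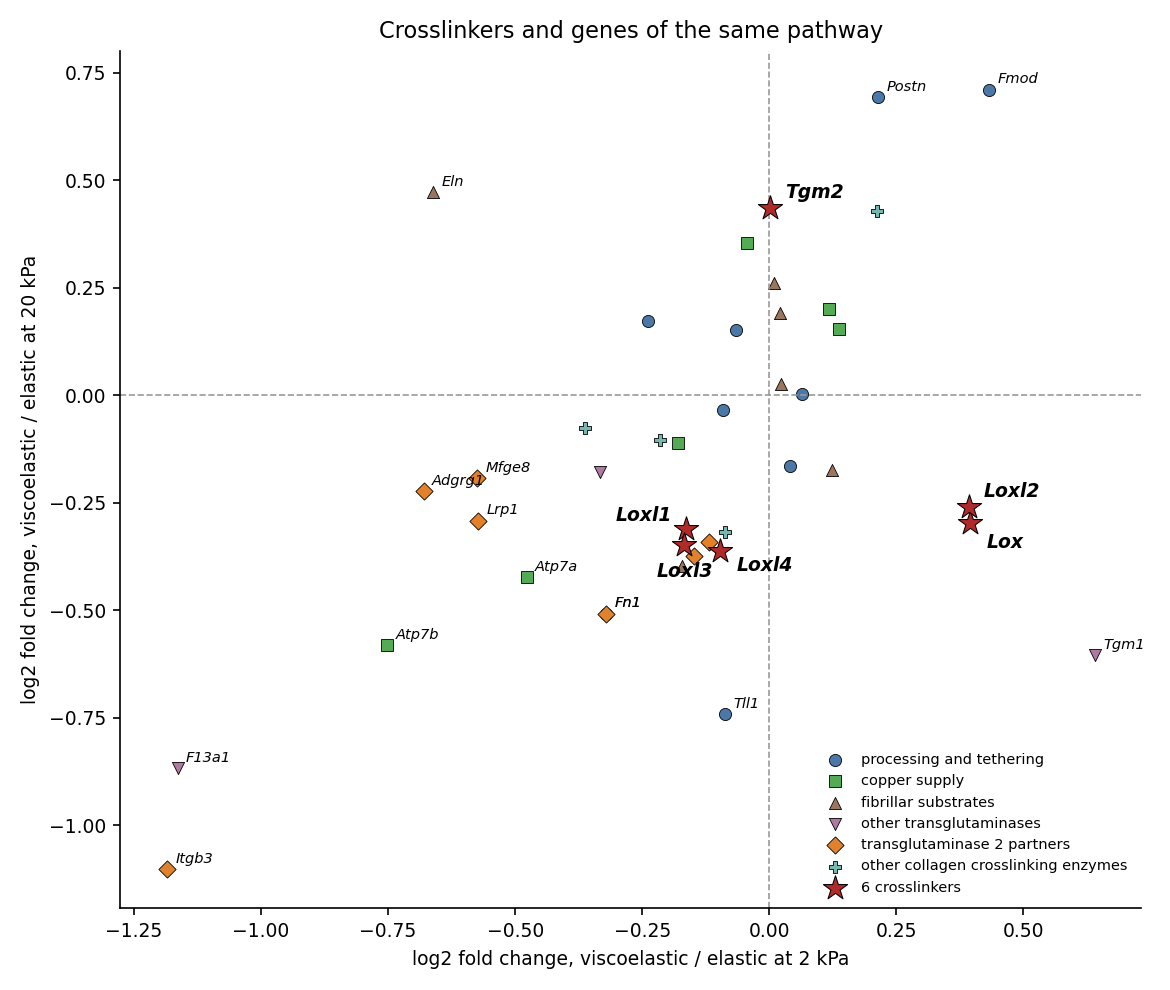
Log2 fold change of viscoelastic against elastic gels at 2 kPa (horizontal) and at 20 kPa (vertical) for the 6 crosslinkers (stars) and the tested genes of the 6 pathway lists. Lox, Loxl2 and Tgm1 lie at the lower right, Loxl1, Loxl3 and Loxl4 at the lower left close to the origin, with Itgb3 and F13a1 farthest from it, and Tgm2 lies on the vertical axis above 0.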

How the data were processed

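RNA-seq of 12 samples (4 gel groups of 3) was analysed. The authors used Trimmomatic for trimming, STAR for alignment to mm10 and featureCounts with GENCODE gene models for counting, and the raw counts were taken as deposited. The strand setting, the GENCODE release and the treatment of multi-mapping reads are not given in the sources used here. Totals were 36626221 to 43612804 counts per sample, so the members rest on at least 1753 counts in each sample.

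The tests were run in R 4.3.3 with edgeR 4.0.16: filterByExpr (minimum count 10, minimum total 15, large group size 10), TMM scaling, a quasi-likelihood fit with 1 coefficient per group over all 12 samples, and calls at a Benjamini-Hochberg adjusted p under 0.05 over 14542 genes. SEs were taken from the F statistic, and 95% intervals from its degrees of freedom. RPKM used exon lengths of GENCODE M21, found for 94.8% of tested genes. Each of up to 20 alternative settings (19 for the interaction and the mean effect) changed 1 choice, or in 1 setting the replicate block and the length and GC correction together. They covered DESeq2 1.42.0, the filter, the scaling, the samples in the fit, a replicate block, a correction for length and GC, and leaving out each sample.

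The members, the pathway lists and the markers were chosen with earlier results of these data known. The members are all named. Of each pathway list, at most 4 called genes with the lowest adjusted p over the comparisons are named (Pcolce2 was added after its values were seen). For each member the 3 genes outside the members with the highest Pearson r of log2 CPM (prior count 2) are named. A stretch of Lox is not printed. In the RefSeq promoter table (GRCm38.p6) Loxl4 was the member present, and its promoter held none of the motifs searched on both strands: AP-1 (TGACTCA or TGAGTCA, in 5.2% of 32851 promoters), TEAD (GGAATG, 14.7%), the hypoxia response core (ACGTG, 19.6%) and SMAD (GTCTAGAC, 0.2%).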

Additional observations from a re-analysis of the deposited data

Results flagged for a closer look

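The step from 2 to 20 kPa differed between viscoelastic and elastic gels (viscoelastic minus elastic) by a test of the difference itself for 2 crosslinkers, -0.69 for Lox and -0.65 for Loxl2 on the log2 scale (edgeR adjusted p = 0.0428 and 0.00263). The Lox value was lost as a call without any of 9 samples, as given above. Among the pathway genes the same difference was called for Tgm1 at -1.24 (edgeR adjusted p = 0.0017), Tll1 at -0.65 (edgeR adjusted p = 0.0388), Pcolce2, an enhancer of procollagen C-proteinases, at 0.41 (edgeR adjusted p = 0.0218) and Eln at 1.13 (edgeR adjusted p = 0.0229). Groups of 3 samples were not searched for samples that stand apart.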

How the results depend on the processing

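Of the values computed again without 1 sample, 400 kept their direction and side of the threshold, 17 lost the call, 7 gained one and 8 changed sign. Under the other settings these numbers were 262, 4, 10 and 0. The count of members called at 2 kPa was 1, and 2 with total counts as the only scaling, with DESeq2 and with no filter, with Lox added, and 1 to 2 without single samples. At 20 kPa it was 5, 6 with DESeq2, with no filter and with only the groups compared, 4 with the replicate block and the length and GC correction together, and 3 to 5 without single samples. For stiffness on viscoelastic gels it was 0, and 1 (Lox) with DESeq2 (-0.41) and with no filter. For the interaction it was 2, 3 with DESeq2 and with no filter, and 1 to 3 without single samples. The cause of these shifts was not tested. The shares of all tested genes called in these alternative settings are not given here, so the counts have no background beside them. Signs turned without single samples only for values near 0: Tgm2 between gel types at 2 kPa (-0.041 to 0.076), the stiffness steps on elastic gels of Loxl1 (-0.048 to 0.11) and Loxl4 (-0.016 to 0.12), that on viscoelastic gels of Loxl3 (-0.11 to 0.047), and the mean viscoelastic effect of Lox (-0.021 to 0.11). Of 12 same-numbered pairs, 2 correlated above 0.1 (range -0.16 to 0.31), both in the comparison of stiffness on viscoelastic gels, where the third pair was at 0.048 and 4 of 6 samples correlated most with their own number. In the other comparisons 0 or 1 of 6 did, so the numbers were not taken to pair the samples. With the number as a replicate block the interaction was called for 1 member, and also with the block and the length and GC correction together, since Lox had an edgeR adjusted p of 0.0732 and 0.0607. Loxl2 at 20 kPa (edgeR adjusted p = 0.0595) and the mean effect of Loxl4 (edgeR adjusted p = 0.0569) were also lost with the block and correction together. The block alone changed no other call of the members, and the pathway genes were not fitted under these settings. The share of counting error in the spread between samples, at 1753 or more counts per member and sample, was not tested.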
